A study of Mus musculus with 20 samples.

Results

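The genes described here are the receptors CAR (Nr1i3) and PXR (Nr1i2) and 4 cytochrome P450 genes that belong to their target families: Cyp2b9, Cyp2b10, Cyp2b13 and Cyp3a11. These 6 genes were chosen by name, as a list of xenobiotic receptors and target cytochromes, from the 55359 genes of the deposited count tables. All 6 were among the 14428 genes that passed the filter on low counts and were tested. Each gene has its counts in all 20 libraries.

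The libraries came from livers of male wild-type mice aged 35 weeks, of a strain the labels spell C56BL/6, with 4 libraries in each of 5 groups. Every mouse, controls included, had received DMBA, a polycyclic aromatic carcinogen, on the skin of the back as a newborn (postnatal day 4 to 5; 50 µL at 0.5% in acetone). The normal-diet group ate chow with 12 kcal% fat and was not exercised, and is called normal-diet liver below. The other groups ate a diet with 60 kcal% fat and were split at 20 weeks into a non-exercised and an exercised arm, each giving 1 group of non-tumour liver and 1 group of tumour tissue. Exercised mice were trained on a treadmill for 5 weeks, from 10 m/min in the first week up to 18 m/min, and over the last 10 weeks had 5 runs a week at that top speed, each lasting 20 min. The high-fat mice used were obese by a cut on body weight that the protocol gives. The exercised and non-exercised mice were killed on 1 day, within 2 h after the last run. Within an arm, a tumour and a non-tumour library with the same mouse number were read as pieces of 1 animal. No group on normal diet was exercised, so exercise could be compared only on high-fat diet.

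CAR and PXR are nuclear receptors of the hepatocyte that sense drugs, pollutants, bile acids and steroids. Each pairs with RXR on DNA and switches on genes of oxidation (cytochromes P450 and their electron donor Por), conjugation and export. Cyp2b10 is the standard readout of CAR in mouse liver and Cyp3a11 that of PXR, although both receptors act on both genes. Cyp2b9 and Cyp2b13 are close relatives of Cyp2b10, are known for higher expression in female than in male mouse liver, and respond to growth hormone patterns more than to inducers. Because all mice here were male, these last genes were measured in the sex that normally has little of them.

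The count tables place the genes on the GRCm39 assembly as follows. Nr1i3 (ENSMUSG00000005677.15) lies at chr1:171041539-171048270 on the plus strand and Nr1i2 (ENSMUSG00000022809.5) at chr16:38068685-38115186 on the minus strand. The Cyp2b genes sit in 1 cluster on the plus strand of chromosome 7, with Cyp2b10 (ENSMUSG00000030483.15) at chr7:25597045-25626049, Cyp2b13 (ENSMUSG00000040583.9) at chr7:25760922-25795622 and Cyp2b9 (ENSMUSG00000040660.7) at chr7:25872836-25910086. Cyp3a11 (ENSMUSG00000056035.9) lies at chr5:145791236-145816774 on the minus strand. The interval of Nr1i3 overlaps Tomm40l on the other strand, which a strand-aware count keeps apart, and that of Cyp2b13 holds the pseudogene Rnf170-ps on the same strand.

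The sequences upstream of the Cyp genes are shown because Cyp2b9 and Cyp2b13 on one side and Cyp2b10 on the other moved in opposite directions with diet. They are the 250 bases before the annotated start of each gene, 5′ to 3′ on the coding strand, from RefSeq on GRCm38.p6, in lower case with motif matches in capitals; all 6 genes had an entry.
Cyp2b9: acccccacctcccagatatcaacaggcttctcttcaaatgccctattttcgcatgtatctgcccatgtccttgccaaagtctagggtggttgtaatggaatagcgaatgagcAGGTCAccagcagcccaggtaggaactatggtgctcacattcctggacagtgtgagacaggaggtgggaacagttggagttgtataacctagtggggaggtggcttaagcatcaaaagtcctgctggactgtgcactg
Cyp2b13: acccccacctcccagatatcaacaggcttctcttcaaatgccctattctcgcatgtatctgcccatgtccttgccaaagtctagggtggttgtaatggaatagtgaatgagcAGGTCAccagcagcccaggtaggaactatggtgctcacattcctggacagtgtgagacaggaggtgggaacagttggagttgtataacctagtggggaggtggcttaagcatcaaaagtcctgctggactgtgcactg
Cyp2b10: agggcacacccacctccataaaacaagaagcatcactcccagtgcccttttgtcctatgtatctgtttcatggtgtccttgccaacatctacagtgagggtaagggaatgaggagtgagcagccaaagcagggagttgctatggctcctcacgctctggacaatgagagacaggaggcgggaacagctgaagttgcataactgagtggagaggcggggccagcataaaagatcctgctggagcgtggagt
Cyp3a11: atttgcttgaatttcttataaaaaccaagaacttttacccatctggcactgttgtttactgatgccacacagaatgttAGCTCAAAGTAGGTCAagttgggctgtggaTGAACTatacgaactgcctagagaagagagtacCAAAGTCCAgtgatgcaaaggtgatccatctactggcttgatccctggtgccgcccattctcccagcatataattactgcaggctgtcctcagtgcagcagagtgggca
The windows of Cyp2b9 (chr7:26173159-26173408) and Cyp2b13 (chr7:26061245-26061494) were identical at 248 of 250 positions. Counted from the first base of the window, and giving the base of Cyp2b9 first, the differences were T48C and C104T. The window of Cyp2b10 (chr7:25897408-25897657) aligned to either of them with 70% identity over 260 aligned columns, of which 20 held a gap. The motifs searched, on both strands, were the nuclear receptor half-sites AGGTCA and AGTTCA, direct repeats of a half-site spaced by 4 bases (AGNTCANNNNAGNTCA) or 3 bases (AGNTCANNNAGNTCA), an everted repeat spaced by 6 (TGANCTNNNNNNAGNTCA), the HNF4-type CAAAGTCCA and the STAT-type TTCNNNGAA. Cyp2b9 and Cyp2b13 each held 1 AGGTCA, 138 to 133 bases before the start, and Cyp2b10, Nr1i3 and Nr1i2 held no match to any of the 7. Only these 250 bases were searched, so sites further from the start would be missed. The window of Cyp3a11 (chr5:145879855-145880104, minus strand) held a direct repeat spaced by 4 that takes in an AGGTCA, then an AGTTCA on the reverse strand and a CAAAGTCCA, in that order. Among 32851 RefSeq windows of the same length, AGGTCA occurred in 14%, AGTTCA in 11.8%, CAAAGTCCA in 0.384% and the direct repeat spaced by 4 in 0.103%. TTCNNNGAA occurred in 7.02%, the direct repeat spaced by 3 in 0.0517% and the everted repeat in 0.0304%.

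Similar transcripts limit what the counts of these genes can hold. In GENCODE vM21 transcripts, 27.3% of the 50-base windows of Cyp2b13 were shared with another gene, mainly the neighbouring Gm45225 and Cyp2b9. The share was 11.2% for Cyp2b9, 8.7% for Cyp2b10 and 6.73% for Cyp3a11, and 0 for Nr1i3 and Nr1i2. With 100-base windows it was 9.29% for Cyp2b13, 1.18% for Cyp2b9, 0.141% for Cyp3a11 and 0 for Cyp2b10. The read length is not given in the sources used here, and reads that matched several genes equally well would have been left out of the counts, so that Cyp2b13 in particular can be counted low.

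The libraries held 16471378 to 20271948 counts in genes. Values below are CPM, which scale counts to a common library size with TMM factors, and fold changes are log2 values with their standard error (SE) from edgeR's quasi-likelihood test, called at an adjusted p under 0.05 over all 14428 genes. All 9 hepatocyte markers analysed (albumin among them) were detected in every group, and their summed level ran from 54510 to 80468 CPM in non-exercised high-fat liver and from 102786 to 220655 CPM in the tumours of that arm. Of these 9, 4 were called higher and 2 lower in those tumours (median log2 fold change -0.12), in a comparison that called 35.8% of all genes. Other cell markers were compared in the same way. The 6 cholangiocyte markers summed to 45.4 to 179.5 CPM in non-exercised high-fat liver and 372 to 1469 CPM in its tumours. Of them 2 were called higher and 1 lower, with a median of -0.28, so the sum does not describe the whole list. The 9 macrophage markers summed to 205 to 245 CPM against 64.9 to 269 CPM, with 3 called lower (0 without a filter on low counts or with only these groups in the fit).

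CAR was lower in tumours than in the surrounding liver of both arms, and differed between diets or between exercise arms by less than the spread between mice. The Nr1i3 values, from mouse 1 to mouse 4, were 189, 224, 149.8 and 149.8 CPM in normal-diet liver, 161, 197, 132 and 139.6 CPM in non-exercised high-fat liver and 159.9, 149, 237 and 245 CPM in exercised high-fat liver. Tumours had 10.9, 20.0, 84.8 and 58.6 CPM without exercise and 12, 56.6, 102 and 79.9 CPM with exercise. Every tumour was below every non-tumour library, but the tumours spread 7.78-fold among non-exercised and 8.55-fold among exercised mice, whereas the non-tumour groups spread at most 1.65-fold. Nr1i3 fell in tumours by 1.85 ± 0.55 (log2, SE) in non-exercised mice (adjusted p = 0.0153) and by 1.66 ± 0.55 in exercised mice (adjusted p = 0.0274). The diet difference was -0.18 ± 0.53 (adjusted p = 0.83). Leaving out non-exercised tumour 2 ended the call in that arm (adjusted p = 0.0538), and in exercised mice leaving out non-tumour library 3 or 4 or tumour 1 or 2 ended it (adjusted p from 0.0555 to 0.0667). In whole tissue, fewer cells of a type and less RNA per cell cannot be told apart.

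Nr1i2, the gene of PXR, also was lower in tumours. Exercised mice had more of it than non-exercised mice in every library, in liver and in tumours alike, but by a difference that did not pass the test. Its values were 94.4, 68.4, 80.0 and 73.5 CPM in normal-diet liver, 63.9, 66.3, 64.2 and 66.9 CPM in non-exercised high-fat liver and 91, 117, 77.6 and 82.7 CPM in exercised high-fat liver. Non-exercised tumours had 37.8, 39.7, 46.7 and 39.4 CPM and exercised tumours 49.5, 84.9, 54.7 and 64.7 CPM. The non-exercised high-fat livers lay within 1.05-fold of each other, below all 4 normal-diet livers and below all 4 exercised high-fat livers, and every exercised tumour was above every non-exercised one. Nr1i2 fell in tumours by 0.68 ± 0.15 without exercise (adjusted p = 0.00223) and by 0.54 ± 0.15 with exercise (adjusted p = 0.0103); when the fit held only these groups, the second call was lost (adjusted p = 0.0651). With exercise, the difference was 0.49 ± 0.15 in liver (adjusted p = 0.282) and 0.63 ± 0.15 in tumours (adjusted p = 0.152), and neither passed the threshold with edgeR, while DESeq2 called the difference in tumours (adjusted p = 0.0259). In order of mean level, exercised high-fat liver (92 ± 17.3 CPM, SD, n = 4) and normal-diet liver (79.1 ± 11.3) overlapped, as did non-exercised high-fat liver (65.4 ± 1.5) and exercised tumours (63.4 ± 15.6), and non-exercised tumours (40.9 ± 3.97) lay below.

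**Figure D1:**
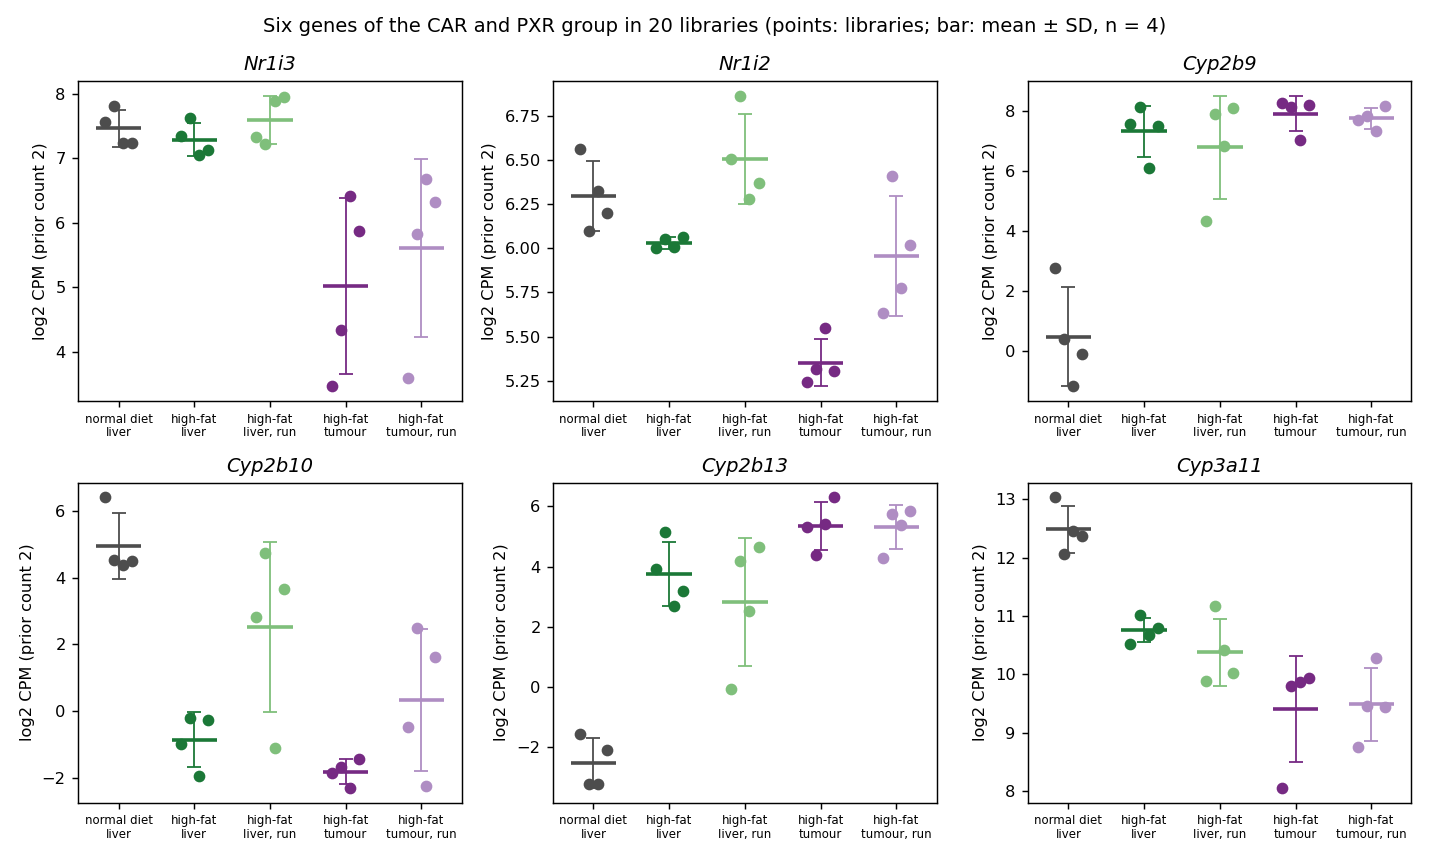
Level of each gene in the 20 libraries as log2 CPM with a prior count of 2, by group; points are mice, horizontal bars are means and whiskers 1 SD (n = 4), and "run" marks the exercised arm. Nr1i3 is lowest in the tumour groups and Nr1i2 in non-exercised tumours, Cyp2b9 and Cyp2b13 are lowest on normal diet, and Cyp2b10 is scattered in both exercised groups.

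Cyp2b10, the main target of CAR, was nearly lost on high-fat diet and was present again in 3 of the 4 exercised high-fat livers. Its values were 85.5, 23.1, 20.6 and 22.5 CPM in normal-diet liver, where mouse 1 was far above the others, and 0.393, 0.749, 0.149 and 0.726 CPM in non-exercised high-fat liver, from only 3 to 15 counts a library. Exercised high-fat livers had 6.99, 26.8, 0.353 and 12.6 CPM, with 3 mice above all non-exercised ones and mouse 3 among them. Tumours had 0.169, 0.205, 0.0929 and 0.258 CPM without exercise, from 2 to 5 counts, and 0.605, 5.48, 0.1 and 2.95 CPM with exercise. In exercised mice the order of the animals was the same in liver and tumour, mouse 2 highest, then 4, 1 and 3. The gene fell with high-fat diet by 6.21 ± 1.08 (log2; adjusted p = 0.000885), with no overlap between the groups. With exercise it differed by 4.52 ± 1.06 in liver (adjusted p = 0.174) and by 3.61 ± 1.36 in tumours (adjusted p = 0.453), neither passing the threshold with edgeR. The difference in liver was called by DESeq2 (adjusted p = 0.00461) and by edgeR once exercised liver 3 was left out (adjusted p = 0.0182).

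Exercised high-fat livers stood between the diets for Cyp2b10: their difference from normal-diet liver was -1.69 ± 0.80 (adjusted p = 0.164), and the ranges overlapped, with exercised mouse 2 above 3 of the 4 normal-diet mice. Cyp2b10 was lower in the tumour than in the liver of all 8 mice, although non-exercised mouse 3 had only 3 counts in liver and 2 in the tumour. It fell in tumours of exercised mice by 2.36 ± 0.89 (adjusted p = 0.0476), a call that was lost when any of 6 libraries (exercised liver 1, 2 or 4 or tumour 1, 3 or 4) was left out, with adjusted p from 0.0552 to 0.188, and without a filter on low counts or with only these groups in the fit. In non-exercised mice the counts were too few for a fold (log2 -1.46, SE 1.68, adjusted p = 0.529), while the fit that took each mouse as a block called it lower (adjusted p = 0.0217).

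Cyp2b9 was present at trace level on normal diet and became the main Cyp2b transcript in all 4 groups on high-fat diet. Its values were 6.71, 1.22, 0.344 and 0.827 CPM in normal-diet liver and 189, 276, 68.5 and 177 CPM in non-exercised high-fat liver. Exercised livers had 19.9, 236, 112 and 269.8 CPM, with mouse 1 far below its group. Tumours had 302, 279, 131 and 291 CPM without exercise and 207, 228, 159 and 281 CPM with it. Every high-fat library was above every normal-diet library, and the 4 high-fat groups overlapped each other. Cyp2b9 rose with diet by 6.28 ± 0.86 (log2; adjusted p = 0.000208), and exercised high-fat liver was above normal-diet liver by 6.12 ± 0.86 (adjusted p = 0.00028). Tumours differed by 0.50 ± 0.66 and 0.46 ± 0.66 without and with exercise, within the spread between libraries (adjusted p = 0.59 and 0.626).

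Cyp2b13 followed the same pattern at a lower level and, in addition, was higher in most tumours. Normal-diet livers held 4, 0, 0 and 2 counts, so its fold with diet rests on almost no reads in that group. Non-exercised high-fat livers had 15.1, 35.3, 6.4 and 9.05 CPM and exercised ones 0.851, 18, 5.7 and 24.8 CPM, with exercised mouse 1 again the lowest. Non-exercised tumours had 39.3, 20.6, 43 and 78.9 CPM and exercised tumours 19.2, 54.2, 42 and 57.8 CPM. Cyp2b13 rose with diet by 7.43 ± 1.27 (log2; adjusted p = 0.000781), with every high-fat library above every normal-diet library. The tumour piece was above the liver piece in 3 of 4 non-exercised and 4 of 4 exercised mice. The tumour difference was 1.47 ± 0.66 without exercise (adjusted p = 0.094; 0.0336 without liver 2) and 1.81 ± 0.68 with exercise (adjusted p = 0.0468). The second was called by a narrow margin: DESeq2 gave 0.0634, and it was lost when any of 6 libraries (exercised liver 1, 2 or 3 or tumour 2, 3 or 4) was left out, with adjusted p from 0.0512 to 0.12, without a filter on low counts and with only these groups in the fit.

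Set side by side, the 3 Cyp2b genes exchanged places. Cyp2b10 made up 92.5 to 98.4% of their summed counts in normal-diet liver, and Cyp2b9 88.5 to 94.8% in non-exercised high-fat liver. The sum itself was 20.2 to 84.2 CPM (here without TMM factors) on normal diet and 85.8 to 326 CPM in non-exercised high-fat liver. Exercised livers 1, 2, 3 and 4 had 25.2, 9.54, 0.299 and 4.11% Cyp2b10, against 0.192 to 0.388% in the non-exercised livers, and the highest share came from mouse 1, in which Cyp2b9 was low. Cyp2b13 took 11.5, 6.88, 24.7 and 21.3% in non-exercised tumours 1 to 4 and 8.48, 18.8, 20.9 and 16.9% in exercised ones, against at most 11.3% in a liver piece, so that non-exercised tumour 2 and exercised tumour 1 lay within the range of the liver pieces and non-exercised tumour 1 just above it. Per kilobase of annotated exons, mean levels in non-exercised high-fat liver were 94.8 CPM for Cyp2b9, 8.79 CPM for Cyp2b13 and 0.239 CPM for Cyp2b10, and in normal-diet liver 1.21, 0.0481 and 18 CPM.

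**Figure D2:**
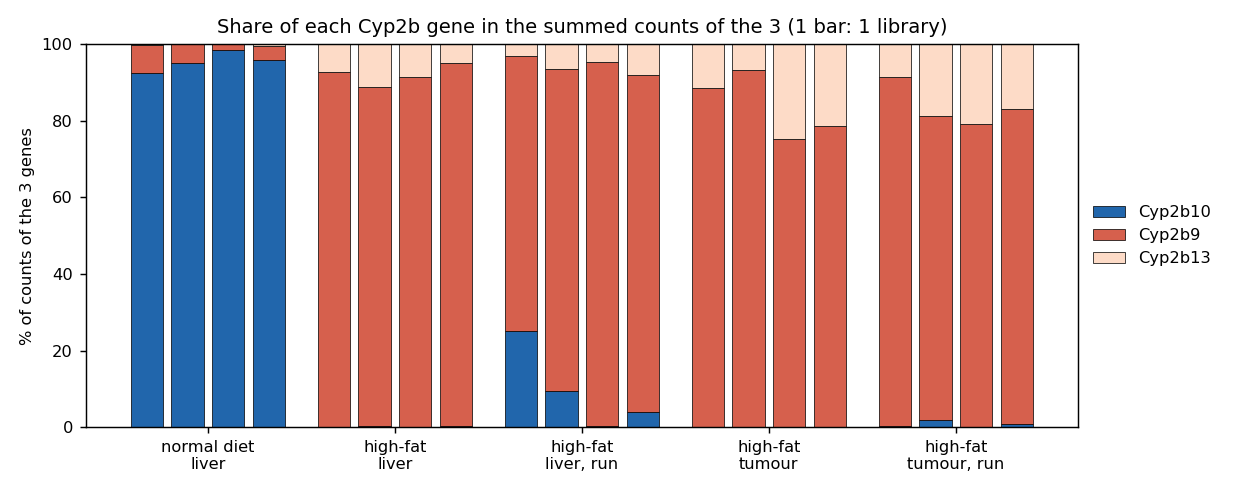
Share, in percent, of Cyp2b10, Cyp2b9 and Cyp2b13 in the summed counts of the 3 genes, with 1 bar for each library in the order of the mouse numbers. Cyp2b10 fills over 92% of each normal-diet bar, and Cyp2b9 fills most of every high-fat bar, with the largest Cyp2b10 share on high-fat diet, 25.2%, in exercised liver 1.

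Cyp3a11, the standard PXR target, fell with high-fat diet and was lower again in tumours. Its values were 8379, 4271, 5621 and 5312 CPM in normal-diet liver, 1471, 2058, 1630.1 and 1782 CPM in non-exercised high-fat liver and 945, 2301, 1369.5 and 1038 CPM in exercised high-fat liver. Tumours had 265, 889.6, 931 and 976 CPM without exercise, tumour 1 being the lowest of all libraries, and 431, 704, 1245 and 692 CPM with it. Every normal-diet library was above every other library. The gene fell with diet by 1.76 ± 0.38 (log2; adjusted p = 0.00345), and exercised high-fat liver was below normal-diet liver by 4.17-fold (log2 -2.06 ± 0.39, adjusted p = 0.00246). In tumours it fell by 1.18 ± 0.38 without exercise (adjusted p = 0.0215), a call lost without liver 2 (adjusted p = 0.0581) or without tumour 1 (0.0593). With exercise the tumour difference was -0.88 ± 0.38 (adjusted p = 0.078), which passed with DESeq2 (0.0428) and without tumour 3 (0.0194). Exercise made a difference of -0.30 ± 0.37 in liver and 0.0049 ± 0.37 in tumours, both within the spread between mice.

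**Figure D3:**
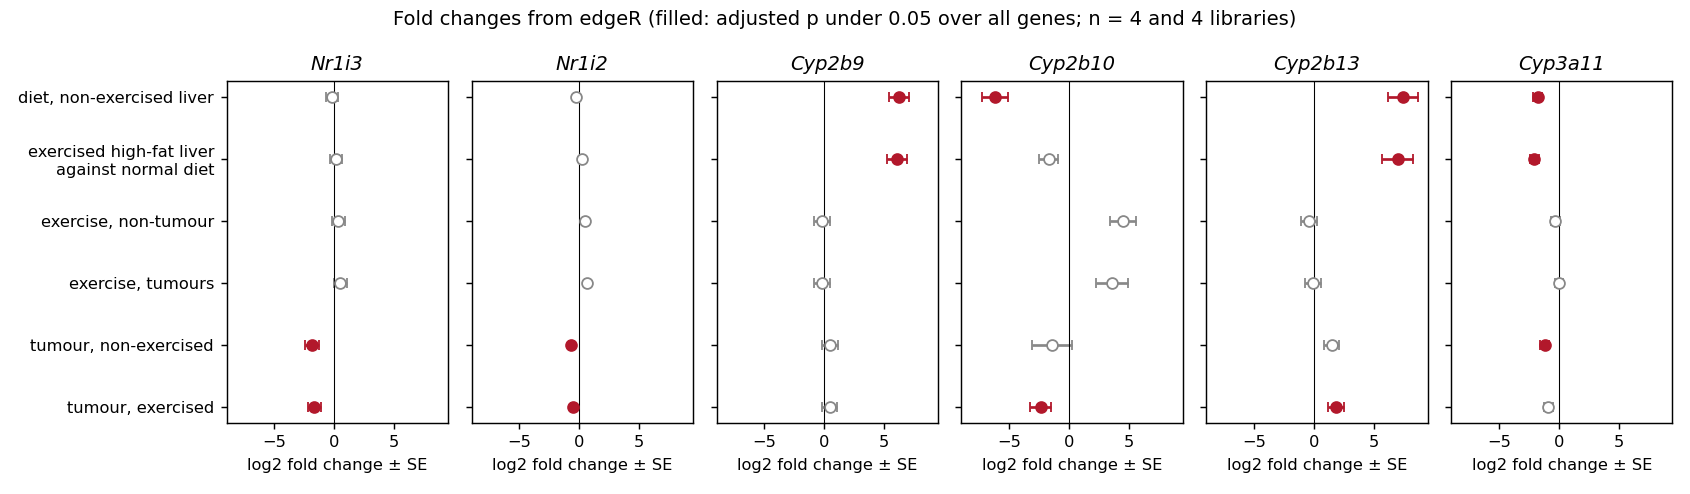
Log2 fold change of each gene in 6 comparisons, with SE, from edgeR's fit over all 20 libraries (n = 4 and 4 libraries in each comparison); filled points have an adjusted p under 0.05 over all genes. The diet rows hold the largest values, positive for Cyp2b9 and Cyp2b13 and negative for Cyp2b10 and Cyp3a11, and no point is filled in the exercise rows.

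Of the 6 genes, 4 were called with diet, 2 higher and 2 lower, in a comparison in which 25.9% of all genes tested were called, 14% higher and 11.9% lower. The receptors were not among them; the Nr1i2 difference was -0.28 ± 0.15 (adjusted p = 0.18) although its ranges did not overlap, which held for 33.1% of all genes, 16.3% being lower. Other targets and partners of the receptors moved in both directions. Of 18 other phase I targets, genes of the oxidation step, 6 fell and 0 rose, with a median log2 fold change of -0.98 against 0.01 over all genes. This count depended on the fit: 3 were lower without a filter on low counts, 9 with DESeq2, and 10 with only these groups in the fit, which also called 1 higher. They included the carboxylesterase Ces2a (fell by 2.44 ± 0.27), the P450 electron donor Por (fell by 1.5 ± 0.27) and Alas1, the first enzyme of heme synthesis (fell by 1.39 ± 0.42). The Alas1 call was lost without a filter on low counts (adjusted p = 0.0616) and without normal-diet library 3 or high-fat liver 1 or 4 (0.0553 to 0.0663). Cyp2c54 fell by 3.52 ± 1.02 and Cyp2c55 by 1.25 ± 0.37, calls that were lost for the first without high-fat liver 3 or 4 (adjusted p = 0.0532 and 0.0577) or without a filter on low counts, and for the second with only these groups in the fit and without normal-diet library 1 or 4 or high-fat liver 1 or 3 (0.0522 to 0.0732).

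Of 17 phase II targets, which conjugate products of oxidation, 4 rose and 3 fell with diet (median -0.17), and 1 fell without a filter on low counts. The glutathione transferases split: Gsta1 rose by 3.15 ± 0.78, Gstm3 by 2.28 ± 0.51 and Gstm2 by 1.59 ± 0.30, while Gstp1 fell by 1.52 ± 0.26. Gst genes have close copies, so their separate counts are uncertain. Of 8 transporter targets only Abcb1a, an efflux pump, was called (1.84 ± 0.41). Of 21 partners and coregulators 1 rose and 10 fell (median -0.26). Hnf4a, a factor that hepatocyte P450 genes depend on, fell by 0.65 ± 0.11, the coactivator gene Ncoa6 by 0.37 ± 0.09 and Egfr, whose signal holds CAR in the cytoplasm, by 2.99 ± 0.51. Under upper-quartile scaling the genes called with diet were 68.8% higher, against 54.1% with TMM, and of the partners 1 rose and 6 fell. Of 10 genes of energy metabolism linked to these receptors, 2 rose and 2 fell, with the lipid droplet lipase gene Pnpla3 at 4.07 ± 0.49, and the fatty acid carrier Cd36 at 1.84 ± 0.26, while Igfbp1 fell by 2.56 ± 0.63. The fourth was Pck1 of gluconeogenesis, which fell by 1.28 ± 0.38 (lost without high-fat liver 1 or 4, adjusted p = 0.0564 and 0.052).

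Sex-biased genes moved with the Cyp2b genes in the diet comparison, which called 14% of all genes higher and 11.9% lower. Of 14 genes with male-biased expression in mouse liver 7 fell and 0 rose (11 fell with only these groups in the fit), among them Hsd3b5 (fell by 8.89 ± 1.79), Ugt2b38 (fell by 5.97 ± 1.08) and Selenbp2 (fell by 5.47 ± 0.92). Of 8 female-biased genes tested, none of them a Cyp2b gene, 3 rose and 2 fell: Cyp2a4 rose by 5.98 ± 1.34, Hao2 by 5.39 ± 0.98 and Cyp17a1 by 3.34 ± 0.63, while Cyp2c69 fell by 3.69 ± 0.78 and Cyp2c40 by 3.21 ± 0.93. The Cyp2c40 call was lost without a filter on low counts (adjusted p = 0.0537) and without normal-diet library 2 or high-fat liver 3 or 4 (0.0532 to 0.063), and Cyp2c69 was not tested under a filter at 1 CPM. The male-biased list summed to 17856 to 22538 CPM on normal diet and 5628 to 9004 CPM in non-exercised high-fat liver. Exercised liver 1, which had the least Cyp2b9 and Cyp2b13 of the high-fat libraries, had 20144 CPM of this list, against 4452, 11486 and 6778 CPM in exercised livers 2, 3 and 4. Its Hsd3b5 was at 179.8 CPM, against 0.149, 4.29 and 0.22 CPM in those 3, and its Slco1a1, a male-biased transporter gene, at 554 CPM against 4.28, 128 and 5.96 CPM. Macrophage markers (6 of 9 called higher, sums 122 to 169 CPM on normal and 205 to 245 CPM on high-fat diet) and stellate cell markers (3 of 7 higher, 198 to 281 and 295 to 537 CPM) moved with diet as well. Hepatocyte markers went the other way, with 4 of 9 called lower and 0 higher (median -0.54). They summed to 77809 to 91941 CPM on normal diet and 54510 to 80468 CPM in non-exercised high-fat liver. Sinusoidal endothelial markers had 2 of 6 called lower and 0 higher. The part of sex-biased expression or of these cell types in the diet results was not tested.

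With exercise, edgeR called 0 of the 6 genes in non-tumour liver and 0 in tumours, where 0.0139% and 0.0208% of all genes were called. At an unadjusted p under 0.05 there were 2 in each tissue, Nr1i2 and Cyp2b10, both higher. Among the 14428 genes ordered by p, Nr1i2 was at place 193 in liver and 46 in tumours, and Cyp2b10 at 40 and 525. At least 193 genes in liver and 525 in tumours thus passed this threshold. These are lower bounds only, as the edgeR p at these places was 0.00377 and 0.0166. The share of all genes under it, here and for the lists below, is not given. Counts at this threshold therefore cannot be read as an excess over all genes. DESeq2 called 1 of the 6 in each tissue, Cyp2b10 in liver and Nr1i2 in tumours, where it called 107 and 79 of all genes. Nr1i2 was the 1 gene of the 6 with ranges that did not overlap, in liver as in tumours; this held for 4.81% of all genes in liver (2.54% higher) and 3.76% in tumours (2.27% higher). The exercise comparisons in liver and in tumours share no library but use the same mice. Of the 18 other phase I targets edgeR called 0 in either tissue, with 3 in liver and 4 in tumours at an unadjusted p under 0.05, all higher, 2 and 1 called by DESeq2, and a median of 0.43 in both against -0.01 and 0.01 over all genes.

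Por and Alas1 stood out among these targets; Alas1 was chosen after its values were seen, and Por is also among the genes most like Cyp2b10. Por was at 101, 115, 91.9 and 84.4 CPM in non-exercised and 359, 280.2, 124 and 269.5 CPM in exercised high-fat liver, and at 280.0, 360.3, 231 and 235 CPM on normal diet. Exercised mouse 3, the one with the least Cyp2b10, had the lowest Por of its group, although still above every non-exercised mouse. Since Por is among the genes most like Cyp2b10 over these same libraries, this shared order is not separate evidence. Por differed with exercise by 1.39 ± 0.27 in liver (edgeR adjusted p = 0.123; DESeq2 0.000366) and 0.97 ± 0.26 in tumours (0.248; DESeq2 0.0542). Alas1 was at 201, 329, 335 and 221 CPM in non-exercised and 1360.3, 710.4, 387 and 869 CPM in exercised liver, with mouse 3 the lowest of the exercised ones. It differed by 1.62 ± 0.42 in liver (edgeR adjusted p = 0.212; DESeq2 0.0146) and 1.52 ± 0.42 in tumours (0.278; DESeq2 0.0354). The receptor partner Rxra differed by 0.45 ± 0.11 in liver (edgeR adjusted p = 0.194; DESeq2 0.0146) and the coactivator gene Ppargc1a by 0.85 ± 0.18 (0.141; DESeq2 0.00461), both also picked after their values were seen. Without exercised liver 3 edgeR called Por (adjusted p = 0.00258), Ppargc1a (0.0213) and Rxra (0.0474) in liver, and without non-exercised tumour 3 it called Alas1 in tumours (0.0236). EdgeR called 0 of 21 partners, 17 phase II targets, 8 transporters and 10 energy genes in liver, with 4, 2, 0 and 4 at an unadjusted p under 0.05 and 2, 0, 0 and 2 called by DESeq2. In tumours it again called 0, with 2, 3, 0 and 2 at an unadjusted p under 0.05 and 0, 1, 0 and 1 called by DESeq2.

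In tumours of non-exercised mice 3 of the 6 genes were called, all lower (Nr1i3, Nr1i2 and Cyp3a11), where 35.8% of all genes were called, 18% higher and 17.8% lower. The ranges of these 3 did not overlap, with the tumours lower, which held for 18.2% of all genes. In exercised mice 4 were called, Nr1i3, Nr1i2 and Cyp2b10 lower and Cyp2b13 higher, where 34.6% of all genes were called, 18.6% higher and 16% lower. Fewer passed under other settings in exercised mice: 1 of 6 without a filter on low counts and 0 of 6 with only these 2 groups in the fit. Within animals, Nr1i3, Nr1i2, Cyp2b10 and Cyp3a11 were each lower in the tumour in 4 of 4 mice of both arms. For Cyp2b10 in non-exercised mice this rests on at most 15 counts a library. The within-mouse difference of Nr1i3 (log2 CPM) was -3.87, -3.30, -0.64 and -1.25 in non-exercised mice 1 to 4 and -3.73, -1.39, -1.21 and -1.62 in exercised ones. Mouse 1 of each arm thus had the deepest loss, and these tumours also had the lowest sum of pericentral hepatocyte genes, 372 and 960.3 CPM, against 1251 to 4557 and 1890 to 5634 CPM in the other tumours.

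**Figure D4:**
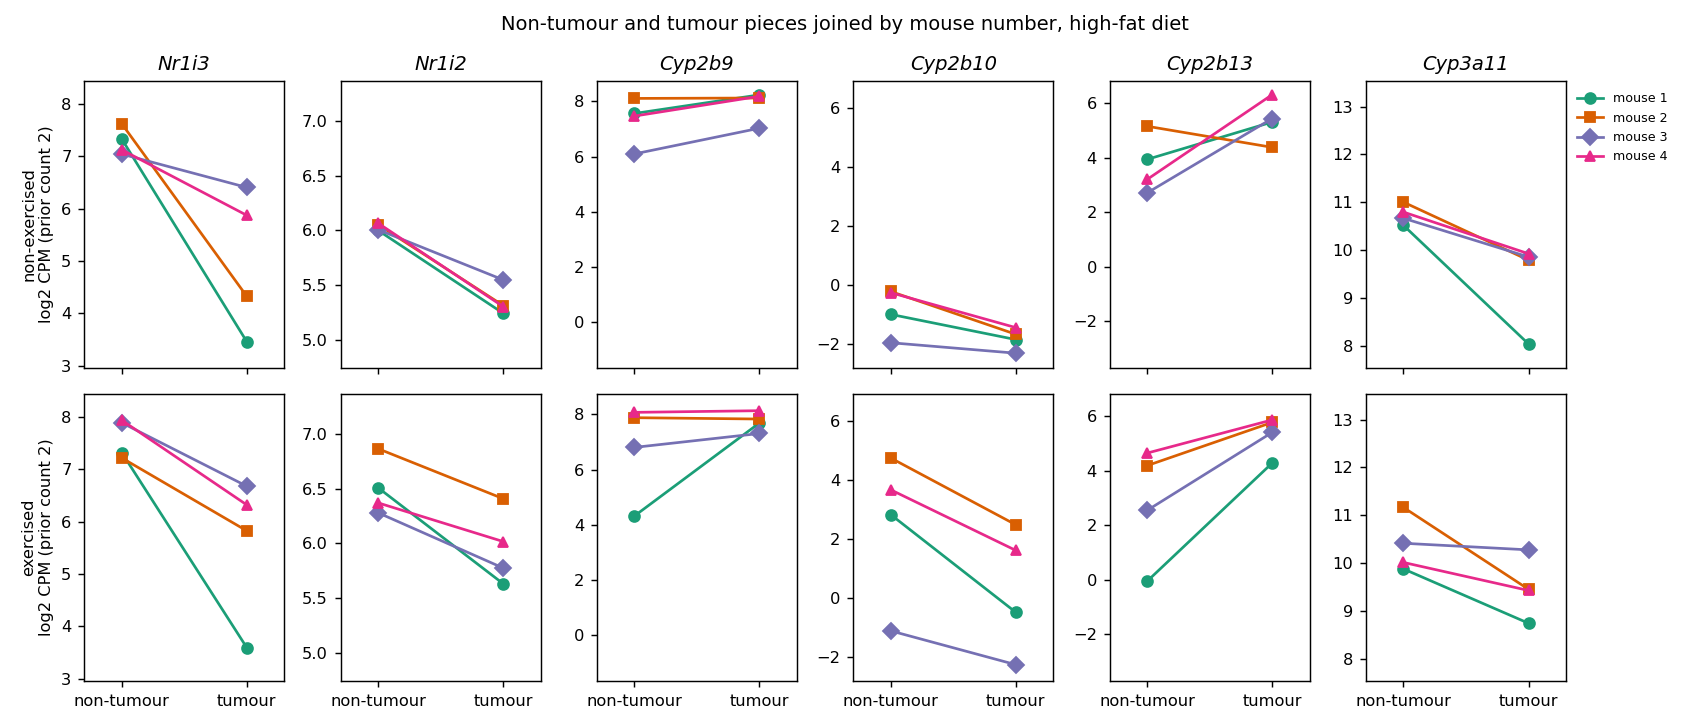
Log2 CPM (prior count 2) of each gene in the non-tumour and the tumour piece of each high-fat mouse, joined by a line, with non-exercised mice above and exercised mice below. Lines fall in all 8 mice for Nr1i3, Nr1i2, Cyp2b10 and Cyp3a11, and rise in 7 of 8 for Cyp2b9 and for Cyp2b13. For Cyp2b9 the line is nearly flat in non-exercised mouse 2 (0.014) and exercised mouse 4 (0.060), and neither tumour comparison was called. Cyp2b10 in non-exercised mice had at most 15 counts a library.

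Of the 18 other phase I targets 10 fell and 1 rose in non-exercised mice (median -1.25 against -0.01 over all genes), and 15 fell and 1 rose in exercised mice (median -1.12 against 0.01). The 15 became 10 without a filter on low counts and 11 with the mouse block. Ces2a fell by 1.40 ± 0.27 and 1.36 ± 0.27 in the 2 arms, the cytochrome b5 gene Cyb5a by 1.08 ± 0.17 and 0.91 ± 0.17, and the oxygenase gene Fmo5 by 1.10 ± 0.25 in both. The gene that rose was Akr1b7, an aldose reductase relative, by 1.66 ± 0.59 and 2.52 ± 0.58; the first call was lost without any of 7 libraries (non-exercised liver 1, 2, 3 or 4, tumour 1, 2 or 4), with adjusted p from 0.0559 to 0.0904. Of 17 phase II targets 9 fell and 0 rose in non-exercised and 7 fell and 1 rose in exercised mice; the bilirubin conjugating enzyme gene Ugt1a1 fell by 0.66 ± 0.16 and 0.72 ± 0.16. The gene that rose was Sult1e1, the estrogen sulfotransferase, by 2.88 ± 0.89, a call lost without a filter on low counts (adjusted p = 0.0562), with only these groups in the fit (0.112) and without exercised liver 1 or 3 or tumour 2 (0.0551 to 0.115). Of 8 transporters, Abcb1a rose by 1.57 ± 0.36 and 1.67 ± 0.37, and Abcc3 fell by 0.83 ± 0.15 and 0.59 ± 0.15; in all, 1 rose and 3 fell without and 2 rose and 3 fell with exercise. Among 21 partners 3 rose and 5 fell without, and 3 rose and 3 fell with exercise. With exercise 6 fell with DESeq2 and 1 with only these groups in the fit. The partners were thus called about as often as all genes, of which 35.8% and 34.6% were called without and with exercise. Rxra, which CAR and PXR need to bind DNA, fell by 0.50 ± 0.11 and 0.61 ± 0.11, and Rack1 rose by 0.57 ± 0.13 and 0.56 ± 0.13.

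Genes of pericentral hepatocytes, the zone in which P450 genes are highest, fell with these targets in tumours: 6 of 11 were called lower and 0 higher in each arm, with medians of -1.70 and -1.61. With the mouse block 3 were lower in each arm, and without a filter on low counts 4. Cyp2e1 fell by 2.13 ± 0.65 in non-exercised mice. That call was lost without tumour 2, with the mouse block, without a filter on low counts and with only these groups in the fit. Their sum was 6000 to 10896 CPM in non-exercised high-fat liver and 372 to 4557 CPM in its tumours. With diet, edgeR called 0 of the 11, with 1 at an unadjusted p under 0.05 and 1 called by DESeq2. Genes of periportal hepatocytes fell in tumours as well. Of 10, 6 were called lower and 1 higher without exercise (median -0.70), and 5 lower and 2 higher with it (-0.59). With exercise 3 were lower with the mouse block and 1 without a filter on low counts. Of all genes, 17.8% and 16% were called lower without and with exercise. The part of either list in the tumour results was not tested.

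The test of whether the tumour difference itself changed with exercise called 0 of the 6 genes, 0 of them at an unadjusted p under 0.05, and 0 by DESeq2; 0% of all genes were called. The difference between the arms was 0.20 ± 0.76 for Nr1i3, 0.14 ± 0.21 for Nr1i2 and 0.30 ± 0.53 for Cyp3a11 (adjusted p = 1 for each). For Cyp2b10 it was -0.91 ± 2.11, for Cyp2b13 0.34 ± 0.93 and for Cyp2b9 -0.04 ± 0.93, so that calls made in only 1 arm (Cyp3a11, Cyp2b10 and Cyp2b13) were not shown to differ between arms.

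Exercised high-fat liver was compared with normal-diet liver to see what stayed different between them. Of the 6 genes 3 were called, Cyp2b9 and Cyp2b13 (7.02 ± 1.29) higher and Cyp3a11 lower, where 14.2% of all genes were called, 7.54% higher and 6.69% lower. This comparison and the diet comparison share the normal-diet libraries. The phase I targets had 2 of 18 called, both lower. In the diet comparison, which called 25.9% of all genes (11.9% lower), 6 were called. Ces2a was lower by 2.16 ± 0.27 and Cyp2c55 by 1.28 ± 0.37 in exercised high-fat liver. The Cyp2c55 call was lost without any of 6 libraries (normal-diet 1, 3 or 4, exercised liver 1, 3 or 4), with adjusted p from 0.0565 to 0.104. Pnpla3 was higher by 2.43 and Cd36 by 1.63, and Igfbp1 fell by 2.57 on the log2 scale.

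The neighbours of the genes on their chromosomes did not all move in the same direction. Of 13 Cyp2 genes followed in the cluster of chromosome 7, 8 passed the filter, of which 4 rose (Cyp2b9, Cyp2b13, Cyp2a4 and Cyp2a22) and 2 fell (Cyp2b10 and Cyp2a12) with diet. Cyp2a22 rose by 3.42 ± 0.59, and Cyp2a12 fell by 0.38 ± 0.14. The Cyp2a12 call was lost with upper-quartile scaling (adjusted p = 0.109), without a filter on low counts (0.071), with only these groups in the fit (0.0658) and without normal-diet library 1, 2 or 4 or high-fat liver 3 or 4 (0.0513 to 0.157). Cyp2a4, a steroid hydroxylase gene with female-biased expression, was at 0.7, 0.523, 0.172 and 0.0636 CPM on normal diet, 11.9, 51.2, 22.4 and 9.2 CPM in non-exercised high-fat liver and 1851, 1320.1, 329 and 1188 CPM in its tumours. It thus rose again in tumours, by 5.63 ± 1.12 and 5.20 ± 1.09 without and with exercise, where Cyp2b9 did not pass the test. Cyp2f2, a periportal gene, fell in tumours by 2.03 ± 0.63 and 1.69 ± 0.63, the first lost without tumour 2 (adjusted p = 0.0616) and the second without any of 6 libraries (exercised liver 1, 2 or 3, tumour 1, 2 or 4; 0.0664 to 0.121). The second was also lost with the mouse block (adjusted p = 0.1). Cyp2a4 and Cyp2a5 are near-identical copies, so their separate counts are uncertain.

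Of 9 Cyp3a genes followed on chromosome 5, 6 passed the filter. With diet Cyp3a11 and Cyp3a13 fell, the latter by 0.71 ± 0.24, a call lost with upper-quartile scaling (adjusted p = 0.0527), without a filter on low counts (0.0717), with the replicate number as a block (0.0542) and without normal-diet library 2 or high-fat liver 3 or 4 (0.0912 to 0.15). In tumours Cyp3a25 fell with Cyp3a11, by 1.42 ± 0.30 and 1.13 ± 0.30, while Cyp3a57 rose by 2.36 ± 0.60 and 4.40 ± 0.68 and Cyp3a44, known as female-biased, by 2.51 ± 0.69 and 2.44 ± 0.70. The second Cyp3a44 call was lost without tumour 1 (adjusted p = 0.0562). The genes that rose were rare: Cyp3a57 was at 0.393, 0.321, 0.447 and 0.678 CPM in non-exercised high-fat liver and 4.27, 1.23, 1.3 and 2.84 CPM in its tumours. Cyp3a11, Cyp3a41a, Cyp3a41b and Cyp3a44 share sequence, and the small counts of the rare copies are uncertain beside Cyp3a11.

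**Figure D5:**
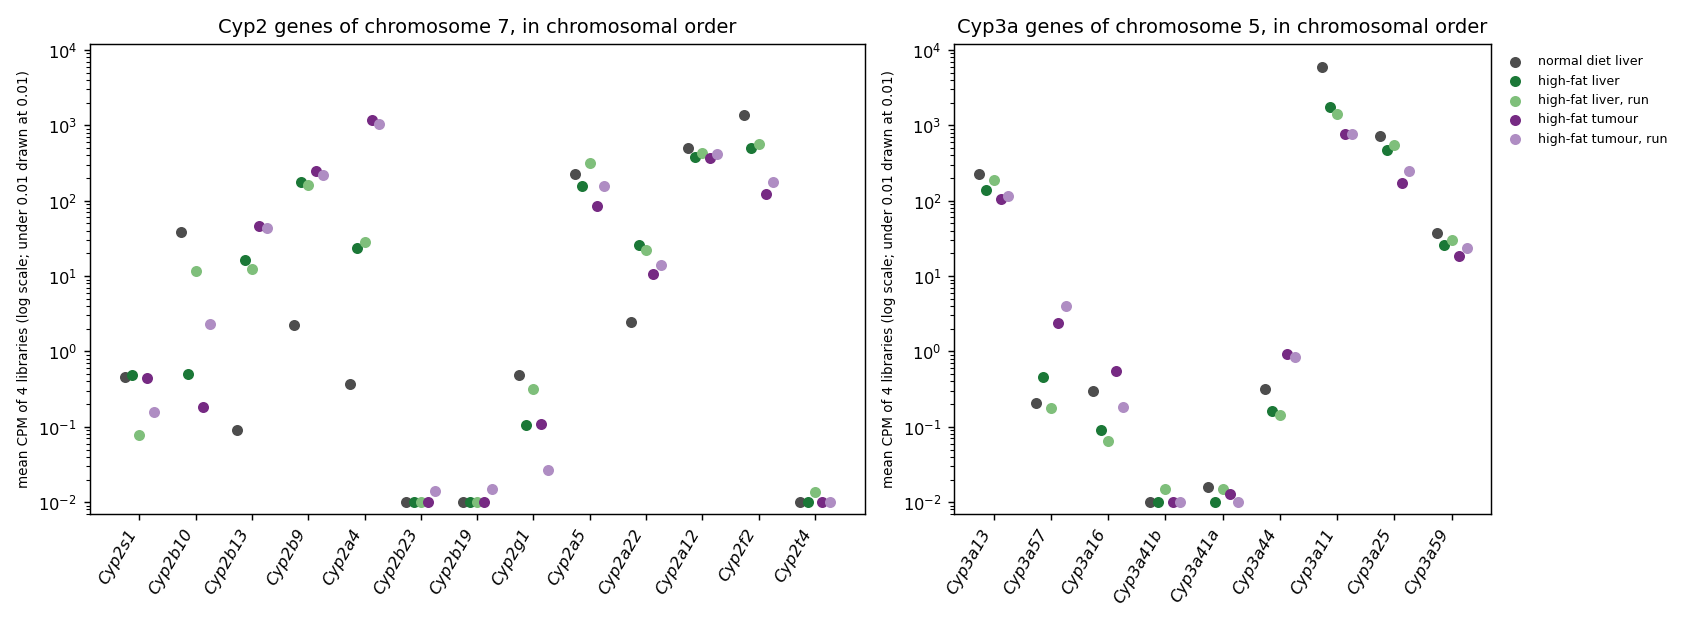
Mean CPM of 4 libraries, on a log axis, for the Cyp2 genes of chromosome 7 (left) and the Cyp3a genes of chromosome 5 (right) in chromosomal order, with means under 0.01 drawn at 0.01 and 1 colour for each group. Cyp2b10 and the neighbouring Cyp2b13, Cyp2b9 and Cyp2a4 are in opposite order by diet, and Cyp2a4 is highest in tumours.

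Over all 20 libraries, the genes whose log2 CPM was most like that of a member were ranked by Pearson's r among 12663 genes with a mean of at least 1 CPM. The libraries share mice, diets and tissue, so these values describe the group structure as much as any pair of genes. For Nr1i3 they were Ces1b (r = 0.98), Nat8f2 (0.98) and Ugt3a1 (0.98), all low in tumours, and for Nr1i2 Slc15a4 (0.92), Etnk2 (0.92) and Pitpnm2 (0.92). For Cyp2b10 they were Rabgef1 (0.91), Por (0.91) and Trim23 (0.90). Cyp2b9 was most like the organic anion transporter family genes Slc22a29 (0.98) and Slc22a27 (0.97) and Gm37795 (0.96), and Cyp2b13 like Gm20559 (0.95), Sybu (0.95) and Slc22a27 (0.94). For Cyp3a11 they were Cyp26a1 (0.94), which breaks down retinoic acid, Gsta2 (0.93) and Ahctf1 (0.92). Among the 6 genes, Cyp2b9 and Cyp2b13 had an r of 0.955, Cyp2b10 and Nr1i2 0.765, Cyp3a11 and Nr1i2 0.56, Cyp3a11 and Nr1i3 0.705, Nr1i3 and Nr1i2 0.71 and Cyp2b10 and Nr1i3 0.457. Cyp2b10 was thus nearer to Nr1i2 than to Nr1i3 over these libraries.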

How the data were processed

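Liver and tumour RNA of 20 mouse libraries was sequenced after a stranded mRNA preparation, per the labels' protocols. The files hold whole-number counts as the authors deposited them; per the file headers, reads were counted over exons by gene with featureCounts 2.0.5 in reverse-stranded mode on GENCODE vM27 (GRCm39), with no option for multi-mapping reads, and the submitters' processing notes name Trim Galore 0.6.10 and STAR 2.7.11a. Genes were filtered by group (filterByExpr, edgeR 4.0.16 in R 4.3.3), scaled with TMM and fitted over all 20 libraries with the quasi-likelihood test (15 residual degrees of freedom), p-values being adjusted by the Benjamini-Hochberg method over 14428 genes. Library totals of 16471378 to 20271948 counts set the precision. The procedure was first tested on simulated counts, drawn independently for each library and for the diet comparison alone. That test does not cover the tumour and exercise comparisons. DESeq2 1.42.0, other scalings and filters, fits with only the groups compared, replicate blocks and leaving out each library were the alternatives.

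The genes, lists and tests were chosen with earlier results of these data known. Of each list, up to 4 called genes with the smallest p were named, and any gene of the Cyp2 and Cyp3a clusters could be. Alas1, Cyp2c40, Slco1a1, Sult1e1 and the values of Fmo5 and Akr1b7 in non-exercised mice fall outside that rule and were picked after their values were seen, as were Rxra and Ppargc1a with exercise. Labels give mouse numbers but do not describe each animal, so p-values reflect only how much these libraries varied. Tumour and non-tumour pieces with the same number in an arm were read from the titles as 1 mouse; their deviations from the group means correlated by -0.083, 0.097, 0.213 and 0.052 in non-exercised and 0.075, 0.441, 0.373 and 0.313 in exercised mice. Promoters came from RefSeq on GRCm38.p6 and transcripts from GENCODE vM21, other builds than that of the counts, and no coordinates were converted.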

Additional observations from a re-analysis of the deposited data

Results flagged for a closer look

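Among 30 groups of 4 libraries (6 genes in 5 groups), 4 held a library far from the other 3 by Dixon's test, where chance gives about 1 in 20. Cyp2b10 in normal-diet liver 1 was at 85.5 CPM, with the others at 20.6 to 23.1 CPM. Cyp2b9 was also highest in that library, at 6.71 CPM against 0.344 to 1.22 CPM. Cyp2b9 was low in non-exercised tumour 3, at 130.8 CPM against 279 to 302 CPM. Cyp3a11 was low in non-exercised tumour 1, at 265 CPM against 889.6 to 976 CPM.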

How the results depend on the processing

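The 4 calls with diet kept their direction and their side of the threshold under the 7 other settings and the 8 fits that left out a library. The number of genes called with exercise was 2 in liver and 3 in tumours. It was 107 and 79 with DESeq2 (91 and 61 higher), 0 and 0 with only the groups compared, and 1 and 1 with the replicate number as a block. It was 1 in liver without a filter on low counts, and 1 in tumours with RLE or upper-quartile scaling or a filter at 1 CPM in 4 libraries. Without single libraries it ranged from 0 to 72 in liver (72 without exercised liver 3) and from 0 to 41 in tumours (31 without non-exercised and 41 without exercised tumour 3). Between exercised high-fat and normal-diet liver it was 2053, 1302 without a filter, and 1157 to 2157 without single libraries (1157 without exercised liver 2). The cause was not tested.

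DESeq2 gave log2 values of 4.55 for Cyp2b10 with exercise in liver, 0.62 for Nr1i2 with exercise in tumours and -0.89 for Cyp3a11 in exercised tumours, all called, and 1.81 for Cyp2b13 in exercised tumours, not called. Without a filter, Cyp3a11 in non-exercised tumours (-1.17) and Nr1i3 (-1.67), Cyp2b10 (-2.39) and Cyp2b13 (1.79) in exercised tumours were no longer called. With only the groups compared, this was so in exercised tumours for Nr1i3 (-1.65), Nr1i2 (-0.53), Cyp2b10 (-2.36) and Cyp2b13 (1.81), and Cyp2b10 did not pass the filter in non-exercised tumours or with exercise in tumours. The near-zero exercise value of Cyp3a11 in tumours changed sign to -0.00645 with RLE scaling, -0.028 with upper-quartile scaling, -0.00645 with DESeq2, -0.00177 without a filter, -0.00882 with the 1 CPM filter and -0.015 with only the groups compared.

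With the mouse as a replicate block, Cyp2b10 was called lower in non-exercised tumours (-1.41) and the interaction of Cyp2b9 changed sign to 0.27; no other call on the 6 genes changed. The numbers do not pair mice between diets or arms (same-number correlations of -0.030 to 0.055 for diet, -0.392 to 0.030 for exercise in liver and 0.028 to 0.573 in tumours, where not every sample was nearest to its own number), and the block on them gave -2.44 for Cyp2b10 between exercised high-fat and normal-diet liver, called.

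Without single libraries, log2 values with a changed call or sign ranged as follows. In exercised tumours they were -2.01 to -1.31 for Nr1i3, -3.26 to -1.56 for Cyp2b10, 1.42 to 2.38 for Cyp2b13 and -1.23 to -0.55 for Cyp3a11. In non-exercised tumours they were -2.40 to -1.51 for Nr1i3, 1.08 to 2.17 for Cyp2b13 and -1.30 to -0.88 for Cyp3a11. With exercise in liver they were 3.70 to 4.93 for Cyp2b10, -0.53 to 0.21 for Cyp2b9 and -0.99 to 0.29 for Cyp2b13, and in tumours -0.32 to 0.32 for Cyp2b13 and -0.35 to 0.20 for Cyp3a11. For the interaction they were -0.16 to 0.73 for Nr1i3, -0.060 to 0.26 for Nr1i2, -0.43 to 0.32 for Cyp2b9, -0.37 to 0.90 for Cyp2b13 and -0.056 to 0.63 for Cyp3a11. Depth limits Cyp2b10 in non-exercised high-fat mice and Cyp2b13 on normal diet, where libraries held at most 15 and 4 counts.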
